A study of Mus musculus with 12 samples.

Results

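The pericentral Wnt-dependent genes of the liver were followed in livers of wild-type (WT) and Pctp-/- mice fed chow or a methionine- and choline-deficient (MCD) diet. The set was given as 10 gene symbols, Glul, Oat, Rhbg, Axin2, Lgr5, Tbx3, Slc1a2, Cyp1a2, Cyp2e1 and Lect2, and a gene was included when its Ensembl identifier had a row in the deposited table of 35275 genes. This found 9 of the 10, and Rhbg, an ammonium transporter, was not analysed here. All 9 had a mean above the minimum of 0.5 FPKM used for testing, so no gene of the set was left out by the filter.

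Whole livers of 12 mice were sequenced, with 4 groups of 3 mice. They comprised WT mice on chow, Pctp-/- mice on chow, WT mice on the MCD diet and Pctp-/- mice on the MCD diet. Pctp-/- mice lack phosphatidylcholine transfer protein (PC-TP), which moves phosphatidylcholine between membranes, in the whole body and not in hepatocytes alone, and no other allele or agent is named for any group. The age and strain of these mice and the time on the diet are not given in the sources used here.

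Hepatocytes differ along the liver lobule from the portal vein, where blood enters, to the central vein, where it leaves. Endothelial cells of the central vein secrete Wnt ligands and R-spondin 3, which hold β-catenin active in the hepatocytes next to them, and β-catenin with TCF/LEF factors switches on the pericentral genes. These genes serve glutamine synthesis, drug oxidation and the feedback of the Wnt pathway on itself, while the periportal zone carries urea synthesis, gluconeogenesis and glutamine breakdown.

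Of the 9 genes, 7 had a promoter window in the RefSeq table (GRCm38.p6), from 250 bases before to 50 bases after the start of the transcript. The 250 bases before the start are shown for Glul and Lect2, whose RNA was higher on the MCD diet in both genotypes, and for Cyp1a2 and Slc1a2, which were lower on the diet in both or in WT mice. Capitals mark the TCF/LEF letters CTTTGA on either strand, the TATA box TATAAA on the gene's strand and the CCAAT box CCAAT on either strand. They run 5′ to 3′ on the gene's strand, from chr1:153899679-153899928 (plus strand), chr13:56548539-56548788 (minus), chr9:57683656-57683905 (minus) and chr2:102706188-102706437 (plus).
Glul: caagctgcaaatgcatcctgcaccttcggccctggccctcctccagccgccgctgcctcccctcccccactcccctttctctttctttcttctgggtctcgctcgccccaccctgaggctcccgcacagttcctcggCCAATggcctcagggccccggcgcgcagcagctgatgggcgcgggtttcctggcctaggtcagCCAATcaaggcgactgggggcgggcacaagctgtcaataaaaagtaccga
Lect2: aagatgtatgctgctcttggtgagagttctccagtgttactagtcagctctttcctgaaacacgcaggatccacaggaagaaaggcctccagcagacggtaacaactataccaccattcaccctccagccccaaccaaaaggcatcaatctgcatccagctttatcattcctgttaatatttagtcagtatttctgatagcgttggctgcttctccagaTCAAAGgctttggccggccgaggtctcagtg
Cyp1a2: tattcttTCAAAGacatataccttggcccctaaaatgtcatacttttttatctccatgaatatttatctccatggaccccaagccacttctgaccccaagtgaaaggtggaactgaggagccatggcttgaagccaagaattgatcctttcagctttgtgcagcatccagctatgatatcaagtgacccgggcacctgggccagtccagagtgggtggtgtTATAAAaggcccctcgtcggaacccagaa
Slc1a2: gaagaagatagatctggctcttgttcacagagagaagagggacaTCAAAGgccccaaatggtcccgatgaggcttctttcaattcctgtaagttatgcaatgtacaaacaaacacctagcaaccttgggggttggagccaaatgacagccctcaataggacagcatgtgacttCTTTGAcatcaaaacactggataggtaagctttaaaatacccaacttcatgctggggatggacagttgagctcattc
CTTTGA or its complement occurred once in the windows of Lect2, Cyp1a2 and Cyp2e1 and at 2 places in that of Slc1a2, and it was not among the letters of the Glul, Oat and Axin2 windows. Of all 32851 windows in the table, 16.0% held it. Of the 7 genes, the longer CTTTGAT, which contains it, was found in Lect2 and Slc1a2, and in 3.73% of all windows. A TATA box began at position -29 in Cyp1a2 and at -31 in Cyp2e1 (13.6% of all windows, either strand), and a CCAAT box lay in Glul, Oat, Axin2 and Cyp2e1 (37.4%). The windows of Glul, Oat and Axin2 were richer in G and C, at 64.3%, 61.7% and 70.0%, than those of the other 4 genes, at 45.7 to 49.7%, beside a median of 52.7% over all windows. Of the genes with the TCF/LEF letters, Lect2 was higher and Cyp1a2 was lower on the diet in both genotypes. In the GENCODE M21 annotation, the Slc1a2 gene begins upstream of this RefSeq start, so its window lies inside the gene.

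The values are FPKM, fragments mapped to a gene per length of its transcript and per depth of the library, as deposited. Libraries held 38760682 to 69490066 reads after cleaning. Fold changes are differences of log2(FPKM + 1), which understates the change of genes near or below 1 FPKM, and were tested with limma over the 12466 genes that passed the filter, with Benjamini-Hochberg adjustment over all of them and a threshold of 0.05. The share of uniquely mapped reads was 77.6 to 79.4% in the 6 chow libraries and 85.7 to 87.5% in the 6 MCD libraries. The genotypes overlapped in this share on each diet. Base quality also separated the diets, with Q30 at 86.3 to 87.1% on chow and 93.5 to 94.6% on the MCD diet. GC content was 49.8 to 51.2% and 48.4 to 49.2%, and the error rate was 0.03% and 0.01%. The labels name no sequencing batch, so the diet and whatever sets these measures cannot be told apart. Hepatocyte markers were abundant in every library, with albumin (Alb) from 26290 to 61588 FPKM. The bile duct markers Krt7 and Krt19 stayed at or below 1.26 FPKM, while Spp1 and Sox9 of the same list ran from 7.09 to 21.7 and from 1.48 to 6.81. The first WT liver on the MCD diet stood apart from the others of its group in genes chosen after their values were seen. Cyp2c29 was at 240 FPKM beside 941 and 1072, and Lyz2, a macrophage gene, at 337 beside 124 and 174. Leaving this liver out cost a single call among the pericentral genes, that of Tbx3 between the diets in WT mice. The second Pctp-/- liver on the diet stood apart in genes of gluconeogenesis and serine breakdown, chosen after their values were seen, with G6pc at 248 FPKM beside 32.7 and 15.8, Pck1 at 1037 beside 272 and 329 and Sds at 83.3 beside 23.2 and 31.4. Over all genes tested, the median absolute deviation from the group mean (log2) was largest in the first livers of both chow groups. It was 0.130 for Pctp-/- and 0.127 for WT, beside 0.115 for the first WT and 0.0774 for the second Pctp-/- liver on the MCD diet. The targeted gene, Pctp, ran from 1.21 to 7.90 FPKM in WT mice and from 0.156 to 0.566 in Pctp-/- mice, so the genotypes did not overlap on either diet. Its log2 fold change in the knockout was -2.33 (standard error 0.23) on the MCD diet, with a limma adjusted p of 6.2e-04, and -1.07 (standard error 0.23) on chow, where the adjusted p was 0.15.

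The 9 genes differed widely in level, and FPKM, being per length of transcript, allow them to be ranked. In WT mice on chow, Cyp2e1 stood highest at 3268 ± 460 FPKM (mean ± SD, n = 3), followed by Cyp1a2 at 616 ± 47.7, Glul at 247 ± 35.2, Oat at 146 ± 20.5 and Lect2 at 70.6 ± 14.4. Each of these was apart from the next in all 3 livers. Slc1a2 and Tbx3, at 8.13 ± 0.883 and 7.44 ± 0.374 FPKM, overlapped each other, as did Axin2 and Lgr5, at 1.81 ± 0.546 and 1.05 ± 0.223 FPKM. On the MCD diet, Glul took the second place from Cyp1a2 in all 6 livers. The ratio of Glul to Cyp1a2 FPKM was 0.344 to 0.499 in the 6 chow livers, 1.03 to 2.03 in WT mice on the MCD diet and 2.17 to 2.82 in Pctp-/- mice on it.

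**Figure D1:**
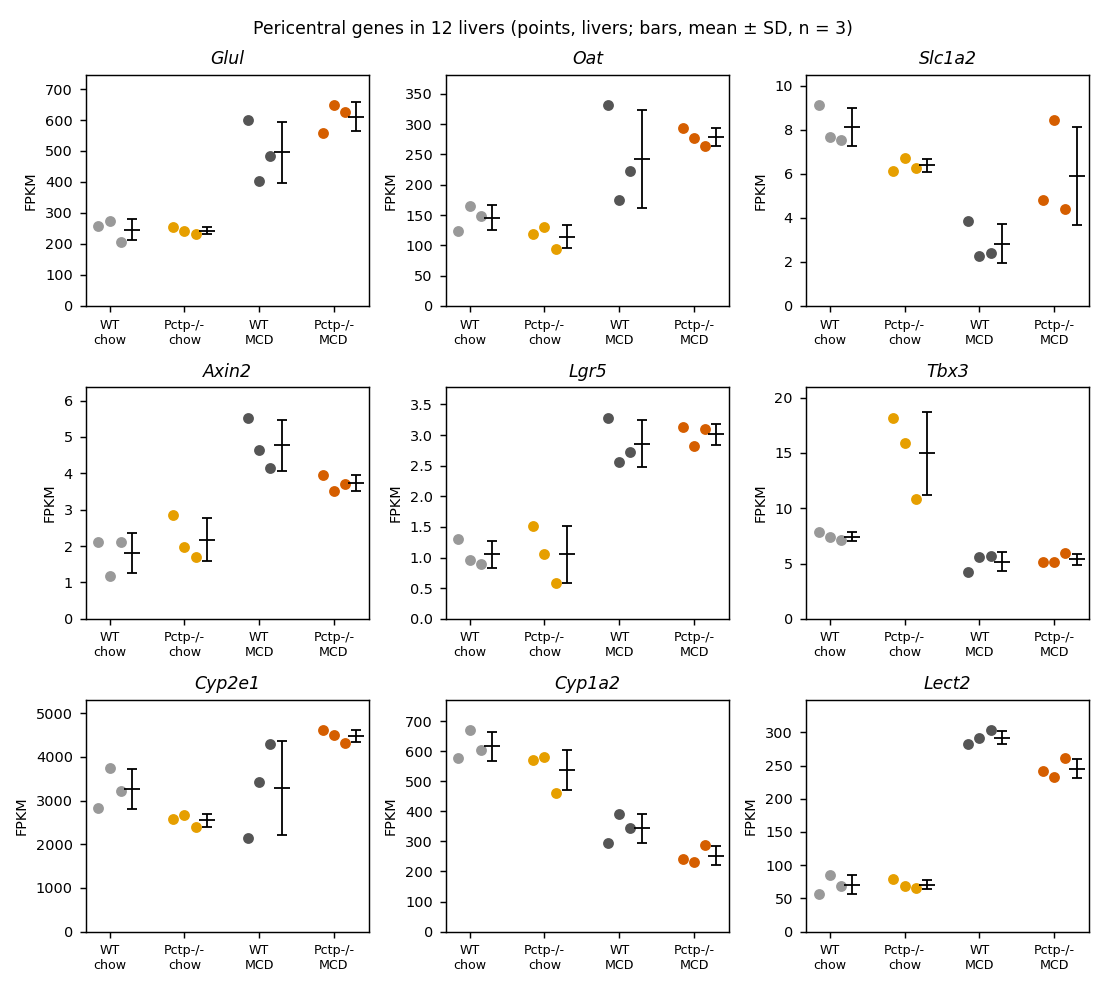
FPKM of the 9 pericentral genes in each of the 12 livers, 1 panel a gene, each with its own linear axis from 0. Points are livers in the order of their replicate numbers, and the black bars give the mean ± SD of the 3 livers of a group. Glul, Oat, Axin2, Lgr5 and Lect2 sit higher in both MCD groups, Cyp1a2 sits lower, Tbx3 is highest in Pctp-/- mice on chow, and Slc1a2 and Cyp2e1 order the genotypes in opposite ways on the 2 diets.

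Most of the set differed between the chow and the MCD livers, which the sequencing quality measures also separated. In WT mice, 8 of the 9 genes passed the threshold, 5 higher and 3 lower on the MCD diet, beside 57.0% of all genes tested (34.5% higher and 22.5% lower). In Pctp-/- mice 8 of 9 passed, 6 higher and 2 lower, beside 50.3% of all genes (26.0% higher and 24.4% lower). Both genotypes called 7 genes, each in the same direction, of which Glul, Oat, Axin2, Lgr5 and Lect2 rose and Tbx3 and Cyp1a2 fell. The median size of the log2 fold change, whatever its sign, was 0.91 for the 9 genes in WT mice and 1.09 in Pctp-/- mice, beside 0.42 and 0.37 over all genes tested. The median log2 fold change over all genes was 0.11 in WT mice and 0.04 in Pctp-/- mice. In whole liver, fewer cells that express a gene and less of its RNA per cell cannot be told apart.

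Glul encodes glutamine synthetase, which pericentral hepatocytes use to bind the ammonia that escapes urea synthesis. It lies on chromosome 1 from 153899944 to 153909723 (GRCm38, plus strand). Its FPKM was 257, 276 and 207 in the 3 WT livers on chow and 254, 242 and 231 in the Pctp-/- livers on chow. On the MCD diet it was 601, 403 and 483 in WT and 559, 649 and 626 in Pctp-/- livers. Every MCD liver lay above every chow liver. The log2 fold change with the diet was 1.00 (standard error 0.14) in WT mice, with a limma adjusted p of 1.1e-04, and 1.33 (standard error 0.14) in Pctp-/- mice, with an adjusted p of 1.6e-05.

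Oat, ornithine aminotransferase, feeds ornithine into glutamate for the same cells. It was at 124, 165 and 148 FPKM in WT and 118, 131 and 93.9 in Pctp-/- livers on chow. With the MCD diet it was 332, 174 and 223 in WT livers and 294, 278 and 264 in Pctp-/- livers. In WT mice the lowest MCD liver was little above the highest chow liver, whereas in Pctp-/- mice the groups were far apart. Oat rose by 0.69 on the log2 scale (standard error 0.20, limma adjusted p = 0.011) in WT mice and by 1.29 (standard error 0.20, adjusted p = 2.3e-04) in Pctp-/- mice. Without the first WT liver on the diet, the value in WT mice was 0.45 (adjusted p = 0.038). The Oat gene overlaps Fgfr2 on the same strand in the annotation, and reads from the overlap could be counted to either.

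Slc1a2 encodes a glutamate transporter of the plasma membrane, which supplies the substrate of glutamine synthetase. On chow its FPKM was 9.15, 7.69 and 7.56 in WT and 6.14, 6.73 and 6.29 in Pctp-/- livers. In MCD-fed mice it was 3.85, 2.26 and 2.40 in WT livers and 4.83, 8.45 and 4.39 in Pctp-/- livers. Slc1a2 was lower on the diet in WT mice without overlap, while one Pctp-/- liver on the diet was above all 3 on chow and the other two were below them. The log2 fold change was -1.27 (standard error 0.20, limma adjusted p = 2.2e-04) in WT mice. In Pctp-/- mice it was -0.15 (95% interval -0.58 to 0.29, adjusted p = 0.57), and it was 0.01 without the third of the Pctp-/- livers on the diet. Without the second of them, the liver at 8.45 FPKM that also stood apart in G6pc, Pck1 and Sds, it was -0.40 (adjusted p = 0.072).

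Periportal hepatocytes run the reverse reaction with Gls2, the liver glutaminase, which fell in both genotypes, by 1.20 in WT mice and by 0.81 in Pctp-/- mice (log2). The ratio of Glul to Gls2 FPKM was 1.54 to 2.21 in WT and 1.92 to 1.97 in Pctp-/- livers on chow. With the diet it was 6.56 to 14.8 in WT livers and 8.66 ± 0.582 (mean ± SD, n = 3) in Pctp-/- livers. Enzymes of the urea cycle, Cps1, Otc, Ass1, Asl and Arg1, passed the threshold in WT mice with log2 fold changes of -0.42, -0.70, -1.12, -1.21 and -0.63. In Pctp-/- mice Ass1 and Asl fell by 0.90 and 1.05, and Cps1, Otc and Arg1, at -0.05, -0.25 and -0.17, did not pass. Otc did pass there after scaling to a common total (-0.31, limma adjusted p = 0.018). These 6 genes were chosen after their values were seen, and of all genes tested 22.5% fell in WT and 24.4% in Pctp-/- mice.

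Axin2 is a scaffold of the complex that destroys β-catenin and a widely used readout of the pathway, since β-catenin itself switches it on. It was at 2.12, 1.18 and 2.12 FPKM in WT and 2.85, 1.97 and 1.70 in Pctp-/- livers on chow. On the diet it was 5.53, 4.65 and 4.14 FPKM in WT and 3.96, 3.52 and 3.70 in Pctp-/- livers. All MCD livers were above all chow livers, and on the diet the WT livers were above the Pctp-/- livers. Axin2 rose by 1.05 on the log2 scale (standard error 0.17, limma adjusted p = 2.2e-04) in WT mice and by 0.59 (standard error 0.17, adjusted p = 0.011) in Pctp-/- mice.

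Lgr5, a receptor of R-spondins that keeps Wnt receptors on the cell surface, was the least abundant of the set on chow. Its FPKM there was 1.31, 0.967 and 0.887 in WT and 1.51, 1.07 and 0.577 in Pctp-/- livers. With the MCD diet its FPKM was 3.28, 2.56 and 2.73 in WT and 3.13, 2.81 and 3.09 in Pctp-/- livers. The 2 genotypes overlapped on each diet, and the diets did not overlap. Lgr5 rose by 0.91 on the log2 scale (standard error 0.16, limma adjusted p = 4.2e-04) in WT mice and by 0.99 (standard error 0.16, adjusted p = 2.9e-04) in Pctp-/- mice. The ratios of mean FPKM, which the added 1 does not shrink, were 2.71 and 2.86.

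Tbx3 encodes a T-box repressor that β-catenin switches on. Its FPKM was 7.84, 7.36 and 7.10 in WT livers on chow and 18.2, 15.9 and 10.9 in Pctp-/- livers on chow. In MCD-fed mice its FPKM was 4.21, 5.61 and 5.71 in WT and 5.10, 5.11 and 5.93 in Pctp-/- livers. The 3 Pctp-/- livers on chow stood above all others, and the genotypes overlapped on the diet. Tbx3 fell by 1.30 on the log2 scale (standard error 0.16, limma adjusted p = 4.8e-05) in Pctp-/- mice. In WT mice it fell by 0.46 (standard error 0.16, adjusted p = 0.029), a call that was lost without the first of the WT livers on the diet, without the first or the second of the WT livers on chow, and with no filter on low values. Tbx3 moved against Axin2 and Lgr5, which are also used as readouts of the pathway. Of the rest of the set, Glul, Oat and Lect2 rose in both genotypes, Cyp1a2 fell in both and Slc1a2 fell in WT mice.

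The 2 cytochromes P450 went different ways. Cyp1a2, which oxidises caffeine and aromatic amines, was at 576, 669 and 603 FPKM in WT and 569, 581 and 462 in Pctp-/- livers on chow. After the MCD diet it was 296, 392 and 345 in WT and 240, 230 and 288 in Pctp-/- livers. Every MCD liver lay below every chow liver. Cyp1a2 fell by 0.84 on the log2 scale (standard error 0.13, limma adjusted p = 1.9e-04) in WT mice and by 1.09 (standard error 0.13, adjusted p = 3.9e-05) in Pctp-/- mice. Its paralog Cyp1a1, with which reads could be shared, was at 0.171 to 1.46 FPKM.

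Cyp2e1, which oxidises ethanol and acetaminophen, was the most abundant gene of the set in all 12 livers. On chow it was at 2837, 3752 and 3213 FPKM in WT and 2590, 2673 and 2391 in Pctp-/- livers. On the diet it was 2143, 3424 and 4297 in WT and 4606, 4498 and 4323 in Pctp-/- livers. The Pctp-/- livers went from the lowest group to the highest, while the WT livers on the diet spread on both sides of the chow livers. Cyp2e1 rose by 0.81 on the log2 scale (standard error 0.20, limma adjusted p = 0.0053) in Pctp-/- mice. In WT mice its log2 fold change was -0.04 (95% interval -0.48 to 0.40, adjusted p = 0.88), and it was 0.24 (adjusted p = 0.16) without the first WT liver on the diet.

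Lect2, a protein secreted by hepatocytes and raised by active β-catenin, had the largest change of the set in both genotypes. It was at 57.1, 85.8 and 68.9 FPKM in WT and 78.7, 68.4 and 65.6 in Pctp-/- livers on chow. Under the MCD diet it was 282, 291 and 303 in WT and 242, 233 and 261 in Pctp-/- livers. The diets were far apart, and on the diet the genotypes did not overlap. Lect2 rose by 2.05 on the log2 scale (standard error 0.13, limma adjusted p = 2.2e-07) in WT mice and by 1.78 (standard error 0.13, adjusted p = 7.5e-07) in Pctp-/- mice.

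**Figure D2:**
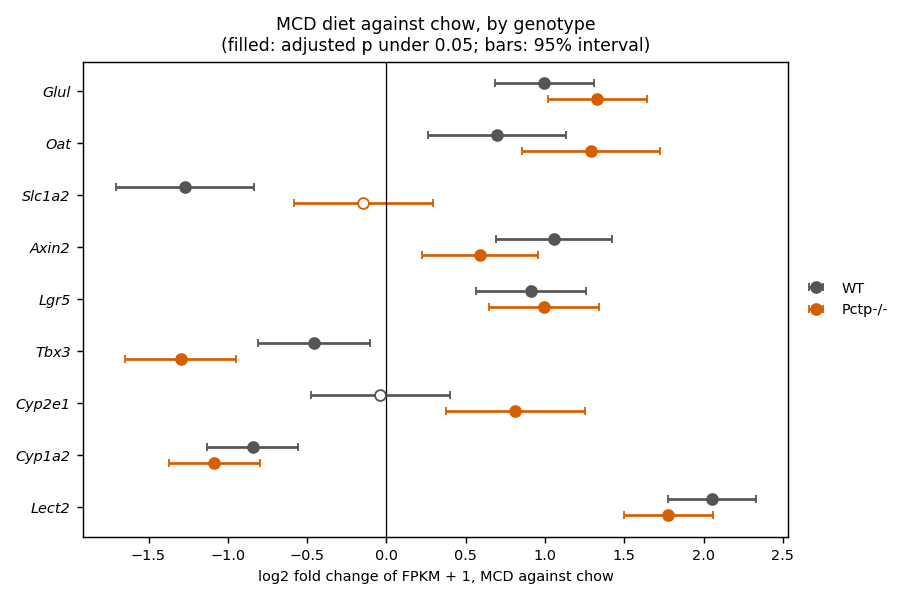
Log2 fold change of FPKM + 1 between the MCD diet and chow for the 9 genes, with WT mice in grey and Pctp-/- mice in orange. Points are limma estimates from 3 livers a group, bars are 95% intervals, and filled points have an adjusted p under 0.05. Open points mark Cyp2e1 in WT mice (-0.04) and Slc1a2 in Pctp-/- mice (-0.15), and Lect2 lies farthest to the right in both genotypes.

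None of the 9 genes passed the threshold between the genotypes. On chow, limma called 0 of 9, beside 0.136% of all genes tested, and 1 of 9 had an unadjusted p under 0.05. That gene was Tbx3, with a log2 fold change of 0.89 (95% interval 0.54 to 1.24, adjusted p = 0.071). Without the third Pctp-/- liver on chow, the lowest of its group, it was 1.09 with an adjusted p of 0.0078. The Pctp-/- and WT livers on chow did not overlap for 3 of the 9 genes, Tbx3 higher and Slc1a2 and Cyp2e1 lower, beside 10.6% of all genes tested. For Glul, Lgr5 and Lect2 the difference on chow was small, with 95% intervals of -0.33 to 0.30, -0.37 to 0.32 and -0.26 to 0.30 on the log2 scale.

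On the MCD diet, limma again called 0 of 9, beside 0.818% of all genes tested, and 4 of 9 had an unadjusted p under 0.05. These were Slc1a2, at 0.82 on the log2 scale (95% interval 0.38 to 1.26, adjusted p = 0.087), Cyp1a2 at -0.44 (-0.73 to -0.16, adjusted p = 0.13), Cyp2e1 at 0.50 (0.06 to 0.94, adjusted p = 0.25) and Glul at 0.32 (0.01 to 0.63, adjusted p = 0.30). Without the second Pctp-/- liver on the diet, Slc1a2 was at 0.57 (adjusted p = 0.29), without the first WT liver on it Cyp2e1 was at 0.22 (adjusted p = 0.58), and without the second WT liver on it Glul was at 0.18 (adjusted p = 0.60). The genotypes did not overlap for 5 of the 9 genes, beside 26.6% of all genes tested. Slc1a2 and Cyp2e1 were higher and Axin2, Cyp1a2 and Lect2 were lower in Pctp-/- mice. The median log2 fold change of all genes in this comparison was -0.09, and it was -0.01 after scaling by the median of ratios.

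The change with the diet could also differ between the genotypes. Limma called 0 of 9 genes for the difference of the diet effects, beside 0.0963% of all genes tested, and 3 of 9 had an unadjusted p under 0.05. For Slc1a2 the diet effect in Pctp-/- mice was greater than in WT mice by 1.12 on the log2 scale (95% interval 0.51 to 1.74, adjusted p = 0.13). For Cyp2e1 it was greater by 0.85 (0.23 to 1.47, adjusted p = 0.19). For Tbx3 the difference was -0.84 (-1.34 to -0.34, adjusted p = 0.14). The intervals of the other 6 genes held 0, and that of Lgr5 ran from -0.41 to 0.57.

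**Figure D3:**
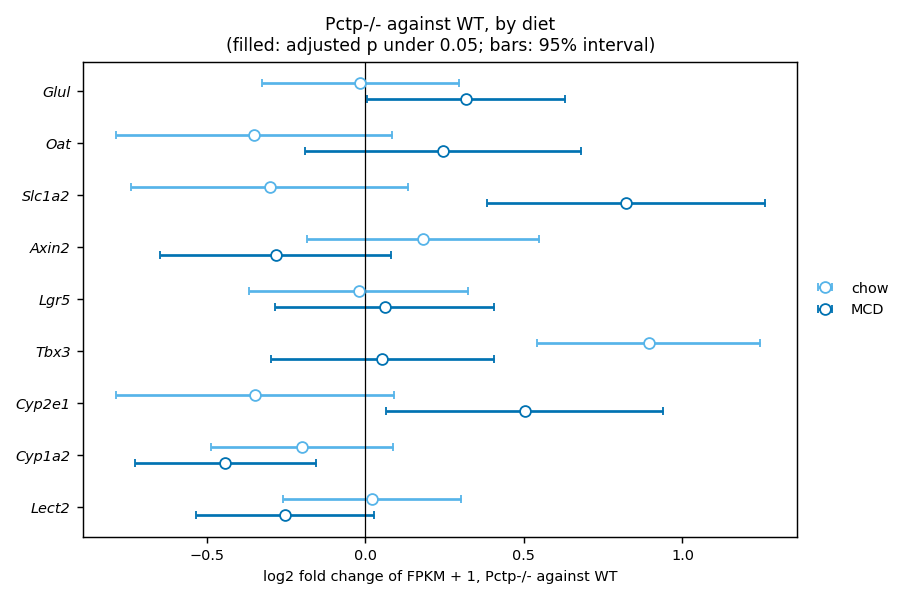
Log2 fold change of FPKM + 1 between Pctp-/- and WT mice for the 9 genes, on chow (light blue) and on the MCD diet (dark blue). Points are limma estimates from 3 livers a group and bars are 95% intervals. All points are open because no adjusted p was under 0.05, and Slc1a2 and Cyp2e1 lie on opposite sides of 0 on the 2 diets.

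The other genes of the pathway were taken from lists of ligands, receptors, core components and inhibitors. Of 23 ligands and R-spondins, 4 were expressed enough to be tested, and 3 rose on the diet in WT mice and 1 in Pctp-/- mice, beside 34.5% and 26.0% of all genes. Their median log2 fold change was 0.73 and 0.28, beside 0.11 and 0.04 over all genes tested. Rspo3, the R-spondin of the central vein, was at 1.03 to 1.63 FPKM in WT and 0.892 to 1.62 in Pctp-/- livers on chow, and at 3.58 to 4.23 and 2.69 to 3.71 on the diet. It rose by 1.05 on the log2 scale (standard error 0.15, limma adjusted p = 1.1e-04) in WT mice and by 0.99 (standard error 0.15, adjusted p = 2.1e-04) in Pctp-/- mice. Wnt2, a ligand of liver endothelium, rose by 0.86 in WT mice (limma adjusted p = 0.0047), and in Pctp-/- mice its log2 fold change was 0.49 (adjusted p = 0.077). Wnt9b, the other ligand of the central vein, was below the filter and lower in every MCD liver, at 0.321 to 0.709 FPKM on chow and 0.0706 to 0.320 on the diet. So was Wnt9a, chosen after its values were seen, at 0.269 to 0.505 FPKM on chow and 0.0316 to 0.240 on the diet. Ligands below the filter enter neither the count of rises nor the median. Wnt5b, a ligand that acts mostly outside the β-catenin branch, rose by 0.61 in WT mice, a call that was lost after quantile normalization (adjusted p = 0.052).

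Endothelial cells are a known source of these ligands, and stellate cells also make R-spondin 3. Of 10 endothelial markers, 4 rose and 1 fell in WT mice, beside 34.5% and 22.5% of all genes, and 0 rose and 1 fell in Pctp-/- mice, beside 26.0% and 24.4%. Their summed FPKM was 57.3 to 74.7 in WT and 59.5 to 87.1 in Pctp-/- livers on chow, and 74.2 to 93.7 and 66.0 to 75.5 on the diet, and none of the 10 was at 0. Of 10 stellate cell markers, 5 rose in WT and 4 in Pctp-/- mice. The part of either list in the change of Rspo3 and Wnt2 was not tested.

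Receptors went down more often than up. Of 17, 11 were tested, and 4 fell and 0 rose in WT mice, while 7 fell and 1 rose in Pctp-/- mice, with a median log2 fold change of -0.25 and -0.40. Of all genes tested, 22.5% fell and 34.5% rose in WT mice, and 24.4% fell and 26.0% rose in Pctp-/- mice. Fzd8 fell by 1.66 in WT and by 1.23 in Pctp-/- mice, Fzd7 by 0.98 and 0.68, and Fzd1 by 0.60 and 0.79 on the log2 scale, all of them Frizzled receptors of Wnt ligands. Lgr4, the R-spondin receptor that hepatocytes hold throughout the lobule, was at 10.5 to 14.9 FPKM on chow and 7.82 to 9.19 on the diet, with log2 fold changes of -0.47 in WT mice (limma adjusted p = 0.0067) and -0.40 in Pctp-/- mice (adjusted p = 0.020). It went against its relative Lgr5 in both genotypes. The single receptor that rose was Fzd4, by 0.81 in Pctp-/- mice, beside 0.20 in WT mice, where it did not pass.

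Of 17 core components, 15 were tested, and 1 rose and 7 fell in each genotype, with a median log2 fold change of -0.24 in WT and -0.36 in Pctp-/- mice. The 7 that fell stand beside 22.5% of all genes in WT and 24.4% in Pctp-/- mice. Ctnnb1, which encodes β-catenin, did not pass in either genotype, with log2 fold changes of 0.21 (limma adjusted p = 0.20) in WT and 0.12 (adjusted p = 0.46) in Pctp-/- mice, at 55.8 to 89.1 FPKM over all livers. Tcf7l2, the main TCF/LEF factor of hepatocytes, fell by 0.47 (limma adjusted p = 0.018) in WT and by 0.67 (adjusted p = 0.0027) in Pctp-/- mice. The largest falls were those of Dvl3 (1.66 in WT and 1.45 in Pctp-/- mice), Bcl9l (1.02 and 1.02) and Dvl1 (0.86 and 1.00 on the log2 scale), which relay the signal from the receptor and help β-catenin at its targets. Csnk1a1, a kinase that marks β-catenin for destruction, was the 1 that rose, by 0.71 in WT and by 0.43 in Pctp-/- mice, and the latter call was lost after scaling to a common total (adjusted p = 0.055).

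Of 18 inhibitors, 8 were tested, and 2 rose and 2 fell in each genotype, with medians of -0.06 and -0.03, beside 34.5% higher and 22.5% lower of all genes in WT and 26.0% and 24.4% in Pctp-/- mice. Frzb and Dkk3, secreted antagonists, rose by 0.83 and 0.72 (log2) in WT mice, and by 0.41 and 0.66 in Pctp-/- mice, where the call of Frzb was lost after quantile normalization (adjusted p = 0.069). Notum, an enzyme that inactivates Wnt ligands and is itself switched on by β-catenin, fell by 0.89 (limma adjusted p = 0.0011) in WT and by 0.55 (adjusted p = 0.021) in Pctp-/- mice, and Kremen1 fell by 0.58 and 0.66. Rnf43 and Znrf3, which remove Wnt receptors from the surface and are also targets of the pathway, did not pass. Their log2 fold changes were -0.42 and 0.02 in WT mice and -0.01 and 0.08 in Pctp-/- mice, and Rnf43 passed in WT mice after scaling by the median of ratios (-0.55, adjusted p = 0.044). Genes described here one by one as readouts or targets of the pathway thus stood on both sides. Axin2, Lgr5 and Lect2 were higher, and Notum and Tbx3 were lower, though the WT call of Tbx3 did not hold in every alternative. Rnf43 and Znrf3 did not pass in the main fit, nor did Nkd1 and Sp5 of the same list.

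Zonation was read further from 20 other pericentral genes and 21 periportal genes, all of which were tested. Of the other pericentral genes, 4 rose and 5 fell in WT mice, beside 34.5% and 22.5% of all genes, and 4 rose and 7 fell in Pctp-/- mice, beside 26.0% and 24.4%. Cyp27a1, a sterol hydroxylase of bile acid synthesis, fell by 1.88 in WT mice and by 1.87 in Pctp-/- mice (log2). Slc13a3, a dicarboxylate transporter, rose by 0.90 and 1.06. Cyp2a5, which oxidises coumarin, rose by 1.35 in Pctp-/- mice, beside 0.11 in WT mice, where it did not pass.

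Cyp2c29, a pericentral P450, was at 895 to 1098 FPKM on chow, at 240, 941 and 1072 in the WT livers on the diet and at 187 to 249 in the Pctp-/- livers on it. It fell by 2.11 on the log2 scale (limma adjusted p = 0.0012) in Pctp-/- mice and did not pass in WT mice. Gstm1, a glutathione transferase, was the 1 gene of the 20 that passed between genotypes on the diet, at -0.79 (standard error 0.14, limma adjusted p = 0.023).

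Periportal genes fell more often than they rose. In WT mice 14 of 21 fell and 3 rose, beside 22.5% and 34.5% of all genes, and in Pctp-/- mice 10 fell and 2 rose, beside 24.4% and 26.0%. The median log2 fold change was -0.70 in WT and -0.28 in Pctp-/- mice, beside 0.69 and 0.81 for the 9 pericentral genes and -0.19 and 0.04 for the 20 others. G6pc, which releases glucose, fell by 2.90 and 3.32, Hsd17b6, a steroid dehydrogenase, by 1.95 and 1.59, and Sds, which breaks down serine, by 1.62 and 1.43 on the log2 scale. Aldh1b1, a mitochondrial aldehyde dehydrogenase, rose by 1.33 and 1.14 and Alb by 0.66 and 1.02. Alb is the most abundant gene in the libraries, and quantile normalization, which gives the top rank the same value in every library, set its change to 0. Cdh1, the cadherin of epithelial cells, rose by 1.17 in WT mice. Pigr, the receptor that carries IgA into bile, was the 1 periportal gene that passed between genotypes on the diet, at 0.60 (standard error 0.11, limma adjusted p = 0.023).

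**Figure D4:**
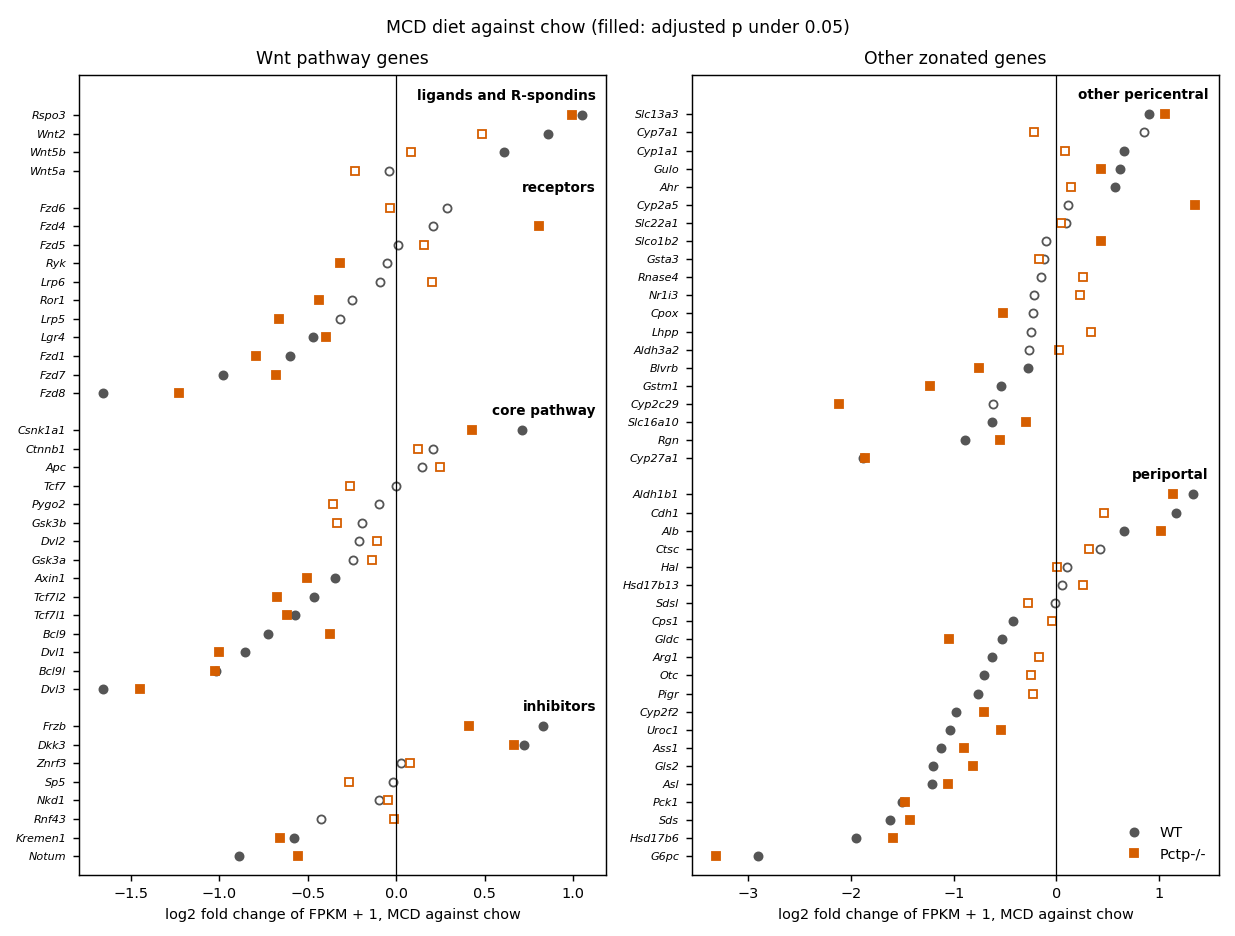
Log2 fold change of FPKM + 1 between the MCD diet and chow for the tested Wnt pathway genes (left, grouped as ligands, receptors, core components and inhibitors) and for other pericentral and periportal genes (right). Grey circles are WT mice, orange squares are Pctp-/- mice, and filled symbols have a limma adjusted p under 0.05. Rspo3 is filled on the right in both genotypes, most filled receptor and core genes lie on the left, and 14 of the 21 periportal genes are filled on the left in WT mice.

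Markers of other cells moved with the diet as well, and their counts stand beside 34.5% of all genes higher and 22.5% lower in WT mice and 26.0% higher and 24.4% lower in Pctp-/- mice. Of 10 macrophage markers, 9 rose in WT and 5 in Pctp-/- mice and none fell, with a summed FPKM of 74.0 to 124 in WT and 64.9 to 175 in Pctp-/- livers on chow and of 292 to 614 and 325 to 414 on the diet. The 9 became 7 after scaling by the median of ratios. Of 10 stellate cell markers, 5 rose in WT and 4 in Pctp-/- mice and none fell, with a summed FPKM of 35.0 to 64.4 over the chow livers and 143 to 212 over the MCD livers. Of 8 bile duct markers, 4 were tested, and Spp1 rose in WT mice and Sox9 fell in Pctp-/- mice. Of 10 hepatocyte markers listed, 9 were found by their symbols and tested. Of these, 2 rose and 4 fell in each genotype, among the latter the transcription factors Cebpa and Hnf4a. Cebpa and Hnf4a fell by 2.04 and 1.10 (log2) in WT mice and by 1.48 and 0.87 in Pctp-/- mice. The remaining marker, transferrin, was listed as Tf but is named Trf here, and was left out of the hepatocyte counts. Its FPKM was 17.8 to 42.7 over the chow livers and 48.5 to 156 over the MCD livers. In WT mice 0 hepatocyte markers rose and 6 fell after quantile normalization, and 1 rose under median-of-ratios scaling and scaling to a common total, with 5 and 6 lower. In Pctp-/- mice these scalings gave 1, 2 and 1 higher and 5, 4 and 4 lower. The median log2 fold change in WT and Pctp-/- mice was 1.42 and 0.78 for the macrophage list, 0.63 and 0.32 for the stellate cell list, 0.44 and 0.08 for the endothelial list, -0.07 and -0.04 for the bile duct list and -0.45 and -0.10 for the hepatocyte list. The part of these markers in the changes of the pericentral genes was not tested.

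The genes whose FPKM followed a pericentral gene most closely were sought over the 12 livers after the mean of each group was taken away, which leaves only the spread between livers of a group. For Glul they were Triap1 (Pearson's r = 0.94), Acad12 (0.90), Smc4 (0.90), Mcm5 (0.88) and Tox4 (0.88). Those of Axin2 were Pcnt (0.95), Pon3 (0.95), Dlst (0.94), Pxdc1 (0.94) and Egln3 (0.94). Those of Cyp2e1 were Tst (0.97), Glyctk (0.95), F10 (0.94), Gstm7 (0.93) and Galt (0.93). Between genes of the set, r ran from -0.64 (Slc1a2 and Cyp1a2) to 0.76 (Tbx3 and Cyp1a2). These are descriptions over the same 12 livers and carry no test, and the neighbours are the best of all tested genes.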

How the data were processed

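Liver RNA of 12 mice was extracted as total RNA and sequenced by a commercial provider. The authors deposited FPKM values for 35275 genes and a table of read statistics, and per the labels the genome build was mm10, while the aligner, the counter and the annotation are not given in the sources used here. Whether counting used strand is likewise not given. The deposited read statistics (read totals, and mapping and quality measures in percent) gave the depth, 38760682 to 69490066 clean reads a library. Groups came from the genotype and diet in the labels. Each library was labelled as a biological replicate, and no 2 libraries held identical values.

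Symbols and positions came from GENCODE M21 (GRCm38), which held 34490 of the identifiers, and promoter windows from RefSeq. Genes with a mean of at least 0.5 FPKM (12466) were tested with limma 3.58.1 in R 4.3.3 on log2(FPKM + 1), with 1 mean for each of the 4 groups, limma's trend option, and p-values adjusted over all tested genes by the Benjamini-Hochberg method at 0.05, with no minimum fold change. FPKM are not counts, so the study's Wald test on counts was not run. The test was tried on simulated data. The contrasts were the diet in each genotype, the knockout on each diet and the difference of the diet effects.

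The genes of the set and all lists (ligands, receptors, core components, inhibitors, other pericentral, periportal, and markers of hepatocytes, endothelial cells, macrophages, stellate cells and bile ducts) were chosen with earlier results of these data known. From each list up to 3 genes a direction with the largest change past the threshold were named, and Wnt2, Wnt9b, Rspo3, Rnf43, Znrf3, Lgr4, Tcf7l2 and Ctnnb1 whatever their values. One gene that this rule names is not reported here. The closest 5 genes to Glul, Axin2 and Cyp2e1 were named by Pearson's r within groups. Alternatives were a pseudocount of 0.1, no filter, a mean of at least 5 FPKM, quantile and median-of-ratios scaling, the libraries of a comparison alone, a replicate block, limma without the trend or with the robust option, and leaving out each library. Scaling to a common total was added after seeing the data. Figures were drawn with matplotlib 3.10.9.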

Additional observations from a re-analysis of the deposited data

Results flagged for a closer look

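For Slc1a2 and Cyp2e1, every Pctp-/- liver lay below every WT liver on chow and above every WT liver on the MCD diet, so that the knockout effects pointed in opposite directions on the 2 diets. Of all genes tested, the genotypes did not overlap for 10.6% on chow and 26.6% on the diet. The share that did so in opposite directions was not counted. For Cyp2e1 the lowest Pctp-/- liver on the diet was at 4323 FPKM, beside 4297 in the highest WT liver. The knockout effect of Slc1a2 was -0.30 on the log2 scale (standard error 0.20) on chow and 0.82 (standard error 0.20) on the diet, which differ by 1.12 (95% interval 0.51 to 1.74), and that difference had a limma adjusted p of 0.13 over all genes. For Cyp2e1 it was -0.35 (standard error 0.20) on chow and 0.50 (standard error 0.20) on the diet, which differ by 0.85 (95% interval 0.23 to 1.47, limma adjusted p = 0.19). Neither difference passed the threshold. The knockout effect of Slc1a2 on the diet was 0.57 without the second Pctp-/- liver on it, and that of Cyp2e1 was 0.22 without the first WT liver on it. The direction of both genes on the diet rests on 3 livers a group, and the median over all genes tested was -0.09 for the knockout on the diet.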

How the results depend on the processing

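The count of pericentral genes called stayed at 6 to 8 for the diet in WT mice and at 6 to 8 in Pctp-/- mice under every alternative, 6 being all but 1 of the 7 tested at a mean of at least 5 FPKM. It was 0 in every alternative for the knockout on the MCD diet and for the difference of the diet effects. On chow it was 0 to 1 when each library was left out, the 1 being Tbx3 without the third Pctp-/- liver. Among the values that did not pass, signs turned when single livers were left out, over -0.26 to 0.24 for Cyp2e1 with the diet in WT mice, -0.40 to 0.0069 for Slc1a2 with the diet in Pctp-/- mice, -0.064 to 0.12 for Tbx3 with the knockout on the diet and -0.10 to 0.24 for Lgr5 in the difference of the diet effects. For the knockout on chow they ran over -0.14 to 0.069 for Glul, -0.18 to 0.16 for Lgr5 and -0.12 to 0.17 for Lect2, and quantile normalization gave -0.0015 for Lect2.

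Counts over all genes moved more. At a mean of at least 5 FPKM, 4448 genes were called for the diet in WT mice and 4047 in Pctp-/- mice, in place of 7110 and 6276, where 6836 genes were tested. For the knockout on chow, 17 genes became 10 with no filter, 11 at 5 FPKM, 4 with the libraries of the comparison alone and 8 to 34 when a library was left out. On the diet, 102 became 55 with median-of-ratios scaling, 19 with the libraries of the comparison alone and 27 to 173 when a library was left out. For the difference of the diet effects, 12 became 3 with a pseudocount of 0.1, 6 with median-of-ratios scaling, 7 without the trend and 0 to 60 when a library was left out, the extremes being without the second Pctp-/- liver on the diet and without the first WT liver on chow or the third WT liver on the diet. The cause of these moves was not tested. The median log2 fold change of all genes for the diet in WT mice, 0.11, was -0.0013 after median-of-ratios scaling and 0.01 after quantile normalization, and the share of calls that were higher went from 60.5% to 50.1% and 51.6%, while 5 of the 9 pericentral genes rose and 3 fell under each.

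Replicate numbers are shared between the groups but number different mice. Over 18 pairs of same-numbered libraries, deviations from the group means correlated at -0.10 to 0.22, with 8 pairs above 0.1. In 12 of the 18, the closest library of the other group had the same number. The libraries come from different mice, so the numbers were not taken to pair them, and why same-numbered libraries matched was not tested. With a replicate block, 32 genes in place of 17 were called for the knockout on chow. For the difference of the diet effects, 59 were called in place of 12. Of the 9 pericentral genes, 0 was called in either.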
